A study of Mus musculus with 12 samples.

Results

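Il6+ fibroblasts are 1 of 5 fibroblast classes that the authors annotated among sorted synovial cells of mouse ankle and wrist joints. Members were the cells that the authors' deposited table names Il6+, matched by barcode and library to the count matrices of the 2 fibroblast wells. The table holds 772 such cells and 771 were matched, of 3325 matched fibroblasts, 3548 matched cells of both fibroblast wells and 8042 cells in the whole table. The class was compared with the Mmp3+ (1658 cells), Pi16+ (629), lining (158) and Cd200+ (109) fibroblasts, and with 127 osteoblasts and 96 chondrocytes of the same wells.

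The mice were R5 x R26tdTomato animals of genotype Il5 wt/Cre; R26 tdTom/tdTom, 8 to 10 weeks old, a line in which Cre expressed from the Il5 locus marks cells with tdTomato, and controls and treated mice all carried both alleles. They were healthy, had serum transfer arthritis (STA, joint inflammation set off by injected serum), or had STA and received Il23mc, an agent that the labels name only by this term and by interleukin-23. The fibroblast sort took viable CD45- GR-1- cells, a gate that removes leukocytes but does not select fibroblasts. Cells of 4 animals were pooled per well, per the labels, and oligo-tagged antibodies (hashtags) told the 3 pools of a well apart. Experiment 1 held a healthy pool, an STA pool and an STA + Il23mc pool, and experiment 2 a healthy pool and 2 STA pools that the authors' table calls mild and severe, a difference that the labels do not give. The unit of comparison was the pool. The 6 pools held 113, 137, 227, 92, 63 and 139 Il6+ cells in the order healthy, STA and STA + Il23mc of experiment 1, then healthy, mild STA and severe STA of experiment 2.

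Interleukin-6 is a cytokine that signals through its receptor Il6ra and the shared chain Il6st to the transcription factor Stat3. In joints, stromal fibroblasts are a main source of it, and its gene is known to be switched on by NF-kB and C/EBP factors downstream of interleukin-1, interleukin-17 and tumour necrosis factor. The other names given to the class belong to Apod, a secreted lipid carrier, Gdf10, a TGF-beta family ligand, and Penk, the precursor of the enkephalin opioid peptides.

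The pools were read by these hashtag oligos, shown because every comparison between conditions rests on them. They are printed whole in capitals, and each was used once in each experiment.
healthy in both experiments: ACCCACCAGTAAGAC
STA of experiment 1 and mild STA of experiment 2: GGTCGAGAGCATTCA
STA + Il23mc of experiment 1 and severe STA of experiment 2: CTTGCCGCATGTCAT
The healthy hashtag was the weakest. Among Il6+ cells called healthy it was the highest of the 3 hashtags in 44 of 113 cells (38.9%) in experiment 1 and in 59 of 92 cells (64.1%) in experiment 2. In the other 4 pools the called hashtag was the highest in 97.8 to 100% of Il6+ cells. The median healthy hashtag count was 151 and 297 UMIs in Il6+ cells called healthy, against 50 in both other pools of experiment 1 and 145 and 117 in those of experiment 2. In the healthy cells of experiment 1 the hashtag of the STA pool had the higher median, 207 UMIs, but it also had a median of 200 UMIs in the STA + Il23mc pool. The hashtags thus had unlike counts in cells of other pools, and the highest raw count does not test whether a call is right. Results on the healthy pools are also given with only the cells whose called hashtag was the highest, which leaves fewer healthy cells.

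The Il6+ cells of a pool held 726726 to 2532673 UMIs in all. The median per cell was 6071 UMIs in the healthy pool of experiment 1 and 9327 to 10541 UMIs in the other 5. The wells shared 4 barcodes, none of them of a cell in the authors' table. The Y-linked gene Ddx3y had 0 UMIs in the mild STA pool, which allows up to 4.13 counts per 1000000 UMIs (CPM), and stood at 41.9 to 89.2 CPM in the other 5, so the mild pool also differed from the other 5 in its Y-linked message. Xist, an RNA of female cells, stood at 528, 217, 452, 676, 1190 and 666 CPM in the order of pools given above. The part of sex in the results on STA was not tested. Levels are given as CPM, taken over all UMIs of the named cell class in a pool, and the 3' kit named in the labels counts the end of a transcript rather than its length.

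The class held a large part of the Il6 message of the joint fibroblasts. In healthy pools the Il6+ cells gave 61.8% (experiment 1) and 74.9% (experiment 2) of all fibroblast Il6 UMIs, while they gave 21.5% and 31.6% of all fibroblast UMIs. In STA they gave 33.9% of the Il6 UMIs in experiment 1, 44.0% in the mild and 61.3% in the severe pool, and with Il23mc 30.4%. The class thus held more of the Il6 message than of the message as a whole in each of the 6 pools.

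Il6 itself (chr5:30013114-30019981 on GRCm38, plus strand) was at 1559, 1329, 1346, 2174, 2925 and 2196 CPM in Il6+ cells, in the order of pools given above. In each pool this was above the level in all 6 other classes. The next highest median over pools was 710 CPM in Cd200+ fibroblasts, with 155 to 811 CPM, followed by 454 CPM in Mmp3+ and 234 CPM in Pi16+ fibroblasts. After each cell was thinned to 2000 UMIs, 489 of 760 Il6+ cells (64.3%, exact 95% interval 60.8 to 67.8%) kept an Il6 UMI. The same share was 32.4% of Mmp3+, 31.5% of Cd200+, 22.9% of Pi16+, 18.99% of lining cells, 17.9% of chondrocytes and 12.6% of osteoblasts. The share in osteoblasts, a class not named for Il6, had an exact 95% interval of 7.38 to 19.7%, and free RNA and Il6 expression cannot be told apart in it. Without thinning, 80.4% of Il6+ and 35.4% of osteoblasts held an Il6 UMI, at median depths of 9567 and 13939 UMIs. Between pools the thinned share in Il6+ cells ran from 60.3 to 68.5%, and the intervals of all 6 pools overlapped.

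The other 3 markers did not set the class apart from all others. Apod stood at 3309 to 5971 CPM in Il6+ cells, 1860 to 7236 CPM in Pi16+ cells and 1796 to 4315 CPM in Cd200+ cells. The thinned shares of cells with an Apod, Gdf10 and Penk UMI were 91.8%, 31.3% and 22.4% in Il6+ and 92.6%, 31.5% and 24.1% in Cd200+ fibroblasts. By these 3 genes the classes overlapped, whereas the share with an Il6 UMI was 64.3% in Il6+ and 31.5% in Cd200+. Of 760 thinned Il6+ cells, 34 held all 4 markers, 213 held 3, 329 held 2, 162 held 1 and 22 held none. Penk was uneven within the class: the 5% of cells with most Penk held 41.8 to 71.5% of its UMIs in a pool, against 20.6 to 31.2% for Il6. Pi16, the marker of the universal fibroblast class, was also present, at a median of 1257 CPM in Il6+ and 1933 CPM in Pi16+ fibroblasts, whereas it was at 17.1 CPM in Cd200+ cells.

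**Figure D1:**
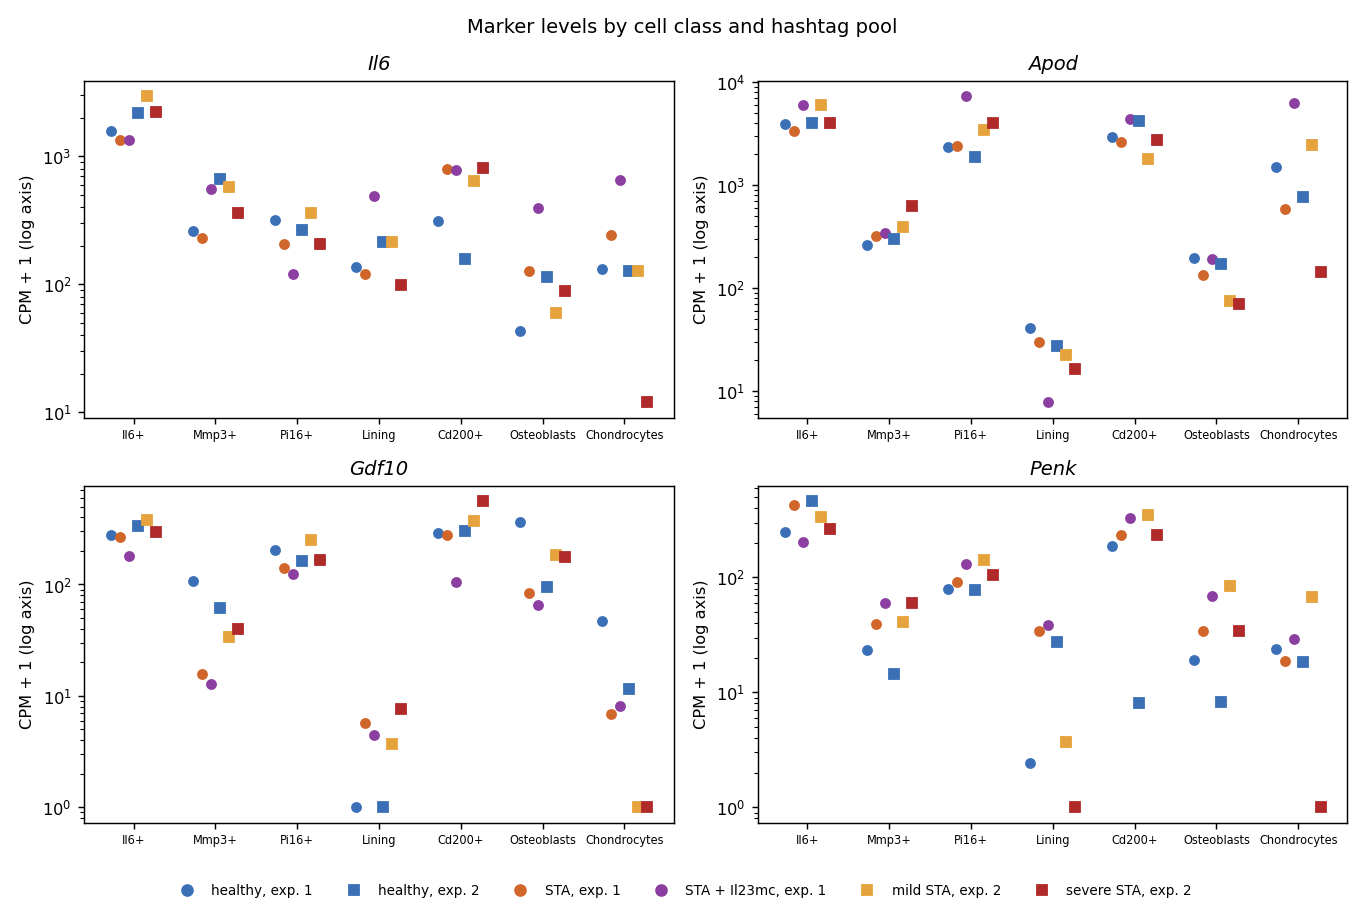
Levels of Il6, Apod, Gdf10 and Penk (CPM + 1, log axis) in 7 cell classes, 1 point per hashtag pool, coloured by condition with circles for experiment 1 and squares for experiment 2. Il6 was highest in the Il6+ class in all 6 pools, while Apod, Gdf10 and Penk of Cd200+ cells lay in much the same range.

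The promoters of Il6, of the neutrophil-attracting chemokine Cxcl1, and of the B cell-attracting chemokine Cxcl13 are shown because the first names the class, the second is one of its most abundant chemokines and the third had the largest rise with arthritis among the named genes. Each run is the 250 bases before the RefSeq transcription start on GRCm38.p6, plus strand, and capitals mark exact matches to an NF-kB pattern (GGG, any 2 bases, then TTTCC) or a C/EBP pattern (TTNNGCAA) on either strand.
Il6, chr5:30012864-30013113: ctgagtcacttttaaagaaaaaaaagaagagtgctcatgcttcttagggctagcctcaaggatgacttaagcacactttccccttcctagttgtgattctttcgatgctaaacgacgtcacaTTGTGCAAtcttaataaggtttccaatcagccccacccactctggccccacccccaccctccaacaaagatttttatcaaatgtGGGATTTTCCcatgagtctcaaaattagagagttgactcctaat
Cxcl1, chr5:90890995-90891244: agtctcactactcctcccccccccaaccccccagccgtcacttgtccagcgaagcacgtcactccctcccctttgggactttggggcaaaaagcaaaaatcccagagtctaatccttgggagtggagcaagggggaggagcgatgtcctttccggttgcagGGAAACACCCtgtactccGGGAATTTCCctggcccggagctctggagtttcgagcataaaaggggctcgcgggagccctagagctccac
Cxcl13, chr5:95956689-95956938: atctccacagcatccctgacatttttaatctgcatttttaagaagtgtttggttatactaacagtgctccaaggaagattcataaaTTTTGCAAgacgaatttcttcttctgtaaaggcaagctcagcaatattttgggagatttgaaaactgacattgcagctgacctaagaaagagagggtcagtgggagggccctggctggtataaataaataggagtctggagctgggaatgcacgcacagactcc
The Il6 window held an NF-kB match starting at -44 and a C/EBP match at -128, the Cxcl1 window held NF-kB matches at -89 and -71, and the Cxcl13 window held a C/EBP match at -164. The windows of Icam1, Apod and Gdf10, scanned in the same way, held neither pattern and are not printed. Of 32851 mouse windows of this length, 1.41% held the NF-kB pattern and 9.56% the C/EBP pattern. A match is a description of these letters and not evidence that a factor binds there.

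Apoe, C4b, Steap4, Ifi203 and Gbp2 had the highest rank in the class when it was set beside the sum of the other 4 fibroblast classes of the same pool. These genes entered the authors' clustering, so the values are a description with no test. Of 1871 genes with at least 50 CPM in Il6+ cells of every pool, 32 were at least 2-fold higher in all 6 pools, with 10 CPM added to both sides. Of 2020 genes with at least 50 CPM in the others, 12 were at least 2-fold lower.

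Apoe, a lipid carrier, led the list with 1434 to 2691 CPM in Il6+ cells against 128 to 434 CPM in the other fibroblasts. The complement component C4b stood at 615 to 1350 CPM against 89.6 to 285 CPM, and C3, on which all complement pathways meet, at 1732 to 8568 CPM against 732 to 1970 CPM. Of chemokines, Cxcl12, which retains CXCR4-bearing cells, had 1573 to 4171 CPM against 537 to 1667 CPM, and Ccl8, a monocyte attractant, had 62.1 to 210 CPM against 19.3 to 45.8 CPM. The interferon-inducible genes Ifi203, Ifi205 and Gbp2 and the class I molecule H2-Q4 were also among the 20 highest. Icam1, an adhesion molecule for leukocytes, and Birc3, an inhibitor of apoptosis, are known NF-kB targets and belonged to the same 20, as did the protease gene Plau, the metalloreductase Steap4, the histone demethylase Kdm6b, the hexokinase Hk2, Itpkc and Slc10a6. For 10 of the 20, Cd200+ fibroblasts had the highest level among the other classes, and for the other 10 it was Pi16+ fibroblasts. The distance to that class varied. Icam1 had a median of 487 CPM in Il6+ and 433 CPM in Cd200+ cells, and Penk, also among the 20, had 298 against 235 CPM. Apoe had 1736 CPM in Il6+ and 532 CPM in Pi16+ cells.

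Mmp13 and Prg4 had the lowest rank. Mmp13, a collagenase, stood at 11.01 to 72.7 CPM in Il6+ cells against 172 to 1464 CPM in the others. Prg4, the lubricin of the lining layer, stood at 687 to 2020 CPM against 4423 to 29879 CPM. Thbs4, Fmod, Tnc, Anxa8, Cthrc1, Col12a1, Aspn and Higd1a completed the 10 lowest. The other fibroblasts were mostly Pi16+ cells in healthy pools and mostly Mmp3+ cells in STA pools, so the reference of these ratios differed between conditions.

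The share of Il6+ cells among fibroblasts was lower in STA than in the healthy pool of the same well in each of the 3 STA pools, but not beyond what the design can test. It was 27.7% in the healthy pool, 14.5% in STA and 23.8% in STA + Il23mc in experiment 1. In experiment 2 it was 34.3% in the healthy, 22.3% in the mild and 29.6% in the severe pool. The difference of means was -8.89 percentage points (31.0% ± 4.69, SD, n = 2 healthy, against 22.1% ± 7.52, SD, n = 3 STA; two-sided exact permutation p = 0.4, where 0.2 is the smallest p that 2 pools against 3 allow). With only cells whose called hashtag was the highest, the healthy pools stood at 23.3% and 34.9%.

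The direction turned when Mmp3+ cells were left out of the denominator. The Mmp3+ class made up 2.45% and 10.8% of fibroblasts in the healthy pools, 69.5%, 49.1% and 40.6% in the STA, mild and severe pools, and 66.5% with Il23mc. Among the remaining fibroblasts Il6+ cells were 28.4% and 38.5% in the healthy pools, 47.6%, 43.8% and 49.8% in the STA, mild and severe pools, and 71.2% with Il23mc. All 3 STA pools lay above both healthy pools, with a difference of 13.6 percentage points (two-sided exact permutation p = 0.2, n = 2 against 3). Per Pi16+ cell there were 0.551 and 0.730 Il6+ cells in the healthy pools, 1.71, 1.09 and 1.32 in the STA, mild and severe pools, and 4.13 with Il23mc. Shares come from sorted and pooled cells, so they give no number of cells per joint.

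**Figure D2:**
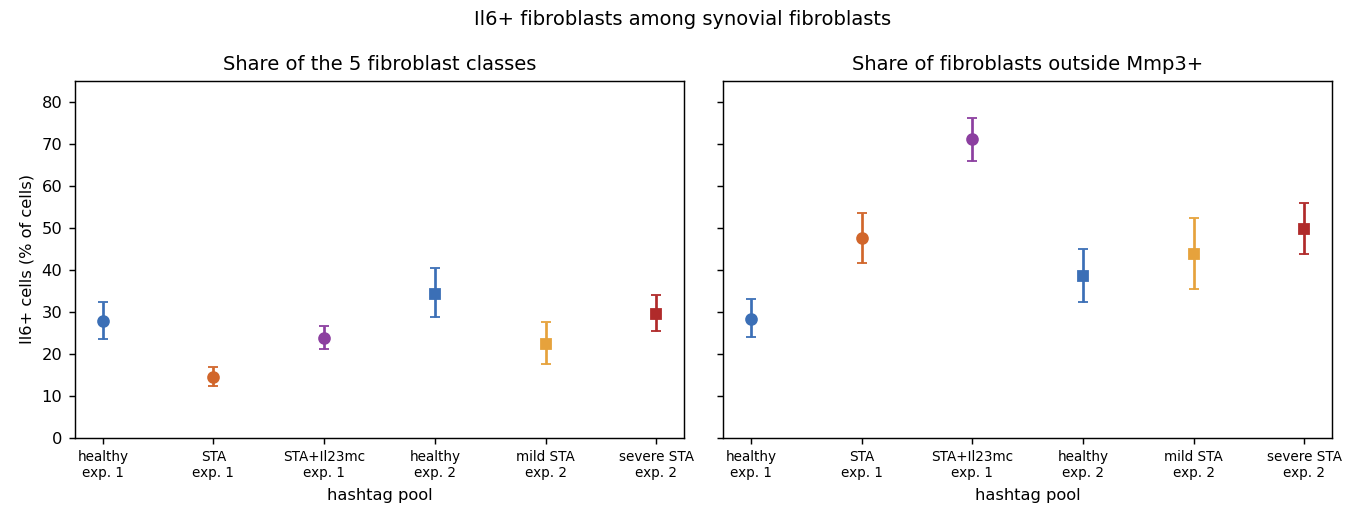
Il6+ cells as a percentage of all 5 fibroblast classes (left) and of fibroblasts outside the Mmp3+ class (right), 1 point per hashtag pool. Bars are exact 95% binomial intervals and cover counting error only; STA pools lie below the healthy pool of their experiment on the left, at 14.5 to 29.6%, and above it on the right, at 43.8 to 49.8%.

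In arthritis 206 genes changed in Il6+ cells. In a test of the 3 STA pools against the 2 healthy pools with the experiment as a term (edgeR quasi-likelihood test, Benjamini-Hochberg adjusted p under 0.05), 206 of 9325 tested genes passed (2.21%). Of these, 113 were higher (1.21%) and 93 lower (0.997%) in STA. Chemokine, protease, matrix and lipid genes were among those that rose, and NF-kB feedback genes were among those that fell. None of the 4 markers passed: the log2 change was -0.07 ± 0.18 (SE) for Il6, -0.03 ± 0.18 for Apod, -0.13 ± 0.19 for Gdf10 and -0.16 ± 0.24 for Penk (edgeR adjusted p = 0.905, 0.959, 0.789 and 0.805). The class is named for these genes and they entered the authors' clustering. Steady levels within it may thus follow from how its cells were chosen, and they do not speak for fibroblasts as a whole. Within each experiment the healthy pool and the STA pools did not overlap for 45.7% of all tested genes and for 205 of the 206 that passed (99.5%), and over both experiments together all healthy and STA pools stood apart for 28.1% of tested genes. The experiment term matters to this result, since without it 2 genes passed, Cxcl5 and Angptl4. Of 65 called genes that the naming rule picked, 32 passed whichever pool was left out, and Cytl1, Chad and Frzb were not tested in at least 1 leave-out because too few UMIs remained. Each leave-out called more genes than the full fit (269 to 472 against 206), so passing there is a weak check. Without the healthy pool of experiment 2 the change rests on 1 STA pool against 1 healthy pool. Without the healthy or the STA pool of experiment 1 it rests on experiment 2 alone, so those leave-outs are not separate checks. The labels give 4 animals per well but not how they were split over its 3 pools, so the animals per pool are not known. Ddx3y and Xist were found together in every pool but the mild one, and what this says of the animals per pool was not tested. The p-values measure the spread between pools.

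Chemokines for different cells moved in different directions. Cxcl5 (chr5:90759360-90761624), a neutrophil attractant, stood at 57.0 and 71.3 CPM in the healthy pools and at 847, 998 and 636 CPM in the STA, mild and severe pools, with no overlap. Its log2 change was 3.57 ± 0.25 (SE; edgeR adjusted p = 1.86e-06). Cxcl13 (chr5:95956951-95961068), which attracts B cells, was nearly absent from healthy Il6+ cells at 4.07 and 1.02 CPM and reached 77.2, 28.9 and 89.9 CPM in STA (log2 change 4.75 ± 0.62, edgeR adjusted p = 0.00115). Few cells carried it: 22 of 137 cells in the STA pool, 3 of 63 in the mild and 9 of 139 in the severe pool, where 1 cell held 66.7% of the UMIs. Leaving out, for each gene and pool, the cell with the most UMIs left Cxcl13 called at a log2 change of 4.76. Cxcl14 rose from 1369 and 878 CPM to 3060, 1936 and 1883 CPM (log2 change 1.04 ± 0.15, edgeR adjusted p = 0.00198). Ccl2, the main attractant of monocytes, fell from 4248 and 4827 CPM to 3528, 2394 and 2485 CPM (log2 change -0.79 ± 0.16, edgeR adjusted p = 0.0137), and lost its call without the healthy pool of experiment 2 or without the severe pool. The more abundant neutrophil attractants did not pass: Cxcl1 was at 8106 and 9247 CPM in the healthy pools and 5377, 8258 and 6057 CPM in STA (log2 change -0.57, edgeR adjusted p = 0.0668; 0.0434 with highest-hashtag cells alone).

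Of 21 tested NF-kB feedback and target genes 4 fell and none rose, while 6 had a positive log2 change, with a median log2 change of -0.23 against 0.01 over all tested genes. Icam1 (chr9:21015985-21028817) was at 1024 and 1146 CPM in the healthy pools and at 356, 476 and 498 CPM in STA, so that the groups stood well apart (log2 change -1.46 ± 0.17, edgeR adjusted p = 0.000325). Tnfaip3, the ubiquitin-editing inhibitor A20, fell from 412 and 369 CPM to 224, 191 and 252 CPM (log2 change -0.89 ± 0.18, edgeR adjusted p = 0.0166). Tnfaip2 fell by 1.00 on the log2 scale, but lost its call with DESeq2 and without either the healthy or the STA pool of experiment 1. The remaining called member, Nfkb1, which encodes an NF-kB subunit and was chosen after its values were seen, was at 939 and 1194 CPM in healthy and 575, 852 and 737 CPM in STA (log2 change -0.74, edgeR adjusted p = 0.0247; 0.254 with highest-hashtag cells alone). Icam1 and Tnfaip3 passed in all alternatives run except the fit without the experiment term.

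Of the interleukin-6 pathway 1 gene passed. Of 4 tested ligands of the family none passed. Of 16 receptor and signalling genes Il6ra, the ligand-binding receptor, passed. It fell from 42.1 and 70.3 CPM to 23.3, 30.3 and 35.0 CPM (log2 change -1.10 ± 0.23, edgeR adjusted p = 0.02), a call that was lost without the healthy pool of experiment 2 and with only the highest-hashtag cells (adjusted p = 0.133). Il6st had 330 and 328 CPM in the healthy pools and 402 to 409 CPM in STA (log2 change 0.20, edgeR adjusted p = 0.641). Socs3, the feedback inhibitor of Stat3 signalling, was at 547 and 743 CPM in the healthy pools and 565, 999 and 1064 CPM in STA (log2 change 0.19, edgeR adjusted p = 0.662).

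Some matrix-degrading enzymes rose. Of 10 tested matrix metalloproteinases and TIMPs 4 rose and none fell (Mmp3, Mmp19, Mmp23 and the inhibitor Timp1, the last named after its value was seen), and of 11 ADAM and ADAMTS proteases 2 rose. Mmp19 and Mmp23 lost their call without the healthy pool of experiment 1, Mmp23 also without the STA pool there and Mmp19 with highest-hashtag cells alone. Mmp3, a stromelysin that cleaves proteoglycans, was at 436 and 210 CPM in the healthy pools and 1038, 899 and 419 CPM in STA (log2 change 1.36 ± 0.27, edgeR adjusted p = 0.0128). In the mild pool 1 cell held 73.5% of the Mmp3 UMIs, and with the top cell of each pool left out the log2 change was 0.93 (edgeR adjusted p = 0.0194), whereas with DESeq2 Mmp3 did not pass. Adamts5, an aggrecan-cleaving protease, rose from 248 and 164 CPM to 503, 446 and 409 CPM (log2 change 1.12 ± 0.19, edgeR adjusted p = 0.00561). The collagenase Mmp13 was at 11.01 to 50.2 CPM in these 5 pools and did not pass.

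Matrix genes rose in part. Of 18 tested collagens 3 passed, all higher, while 17 of the 18 had a positive log2 change and the median was 0.65. Of all 9325 tested genes 4734 had a positive log2 change. The called collagens were Col3a1, Col4a1 and Col6a3. Col4a1 lost its call without either the healthy or the STA pool of experiment 1. Col6a3 lost it in every leave-out but that of the mild pool. Of 10 tested small leucine-rich proteoglycans Bgn and Ogn rose and Dcn fell. Of 9 basement membrane genes Lamb1 and Nid2 rose and Lamb2 fell. Each of these proteoglycan and basement membrane calls was lost in at least 1 leave-out. Col3a1 stood at 5393 and 6357 CPM in the healthy and 15876, 8461 and 13491 CPM in the STA, mild and severe pools (log2 change 1.01 ± 0.19, edgeR adjusted p = 0.0102). Col1a1 had the values 3432 and 6807 against 9316, 7297 and 11305 CPM and did not pass (edgeR adjusted p = 0.0642). Postn, a matricellular protein of remodelling tissue, rose from 262 and 624 CPM to 1646, 758 and 1431 CPM (log2 change 1.43 ± 0.32, edgeR adjusted p = 0.0271), a call lost with DESeq2. Ccn3, of the CCN family, fell from 220 and 441 CPM to 51.0, 67.4 and 112 CPM (log2 change -2.30 ± 0.21, edgeR adjusted p = 2.89e-05). Cthrc1, a collagen-associated protein, rose in the named list (log2 change 2.93), with 10.9 and 15.3 CPM in healthy and 221, 22.02 and 77.4 CPM in STA, a call lost with DESeq2 and with only the highest-hashtag cells (adjusted p = 0.0846).

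Secreted regulators of growth factors changed as well. Igfbp4, which binds insulin-like growth factors, rose from 1080 and 905 CPM to 3071, 2189 and 2578 CPM (log2 change 1.34 ± 0.16, edgeR adjusted p = 0.000369). Igfbp6 went the other way, from 922 and 1234 CPM to 495, 604 and 511 CPM (log2 change -1.14 ± 0.16, edgeR adjusted p = 0.00191). The bone morphogenetic protein antagonist Chrdl1 rose from 24.5 and 15.3 CPM to 69.7, 75.7 and 107 CPM (log2 change 2.00 ± 0.31, edgeR adjusted p = 0.0029). Id1, a target of that pathway, fell from 27.2 and 36.7 CPM to 5.999, 5.50 and 14.4 CPM (log2 change -1.97 ± 0.39, edgeR adjusted p = 0.0128), with the call lost in highest-hashtag cells alone (adjusted p = 0.0822). Of the 23 tested TGF-beta and BMP genes 2 rose and 2 fell. The Wnt antagonist Sfrp2 rose from 44.8 and 58.1 CPM to 560, 93.6 and 513 CPM (log2 change 2.83 ± 0.51, edgeR adjusted p = 0.00776; 0.0577 with highest-hashtag cells alone, and not called with DESeq2).

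Among lipid-handling genes 3 of 17 rose (Angptl4, Lpl and Plin2) and none fell. Plin2 stood at 17.7 and 11.2 CPM in the healthy and 46.5, 27.5 and 30.0 CPM in the STA, mild and severe pools. Its call was lost without the healthy pool of either experiment and without the STA pool of experiment 1. Angptl4 (chr17:33773750-33781830), an inhibitor of lipoprotein lipase, rose from 20.4 and 16.3 CPM to 239, 147 and 145 CPM (log2 change 3.24 ± 0.25, edgeR adjusted p = 4.79e-06), and was detected in 59 of 137, 13 of 63 and 43 of 139 cells of the STA, mild and severe pools against 10 of 113 and 6 of 92 healthy cells. Lpl, that lipase itself, rose from 138 and 195 CPM to 402, 377 and 737 CPM (log2 change 1.43 ± 0.25, edgeR adjusted p = 0.00635). Aldh1a2, which makes retinoic acid, rose by 1.84 ± 0.26 on the log2 scale (edgeR adjusted p = 0.00177). Hsd11b2, the enzyme that inactivates glucocorticoids, was at 0 and 3.06 CPM in the healthy pools and 28.5, 13.8 and 41.8 CPM in STA, that is 3 UMIs in all healthy cells and 115 in all STA cells (edgeR adjusted p = 0.00748).

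In the complement list C3 and C1s1 rose and C4b fell, of 12 tested genes. C1s1 lost its call without the healthy pool of experiment 2 (adjusted p = 0.155). C3 went from 2870 and 1732 CPM to 4595, 3988 and 4070 CPM (log2 change 0.88 ± 0.16, edgeR adjusted p = 0.00821), a call lost without the healthy pool of experiment 2. C4b, high in the class in all pools, went from 1350 and 989 CPM to 845, 615 and 705 CPM (log2 change -0.73 ± 0.16, edgeR adjusted p = 0.0237), a call lost without the STA pool of experiment 1. Of 9 tested acute-phase genes 2 rose, Lcn2 and Serpina3n, both with calls that were lost in some leave-outs. Both calls were also lost with highest-hashtag cells alone (edgeR adjusted p = 0.0701 and 0.0608), and that of Lcn2 with top cells left out (edgeR adjusted p = 0.108). Lcn2 stood at 99.1 and 48.9 CPM in the healthy and 321, 81.2 and 92.4 CPM in the STA, mild and severe pools. None of 22 tested interferon-response genes passed, with a median log2 change of 0.77, and none of 14 heat shock genes.

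The remaining genes with the largest changes included some carried by very few cells. Scg3, a granin of secretory granules, fell from 118 and 157 CPM to 11.2, 31.7 and 36.8 CPM (log2 change -2.65 ± 0.25, edgeR adjusted p = 4.31e-05), with 27 to 29 of the healthy cells per pool holding a UMI. The adhesion molecule Chl1 and the imprinted RNA H19 rose in all 3 STA pools (log2 changes 2.89 and 2.43), as did Lgi2 (2.70), which lost its call with highest-hashtag cells alone (adjusted p = 0.054). Pcdh10, a protocadherin, fell by 1.78 on the log2 scale, a call lost without either the healthy or the STA pool of experiment 1 and with highest-hashtag cells alone (adjusted p = 0.154). For 5 of the 206 called genes 1 cell held over 50% of the UMIs of the higher group: S100g, Cytl1, Chad, Ibsp and Hist1h2ap. S100g, a calcium-binding protein, had 43 UMIs in healthy and none in STA cells, at least 30.5-fold lower against a floor of 3 UMIs over the STA group, but all came from 3 cells and the call was lost with highest-hashtag cells alone. Cytl1, Chad and Ibsp, genes of cartilage and bone, were at 46.9, 38.7 and 57.0 CPM in the healthy pool of experiment 2 and at 0.750 to 12.5 CPM in the other healthy pool and all STA pools. Nppc, a natriuretic peptide, reached 35.8 CPM in the mild pool, where its 26 UMIs came from 1 cell, and did not pass with the top cells left out or without the healthy pool of experiment 2.

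Markers of other cell types were present at different levels. Among markers of the other fibroblast classes, 2 of 4 tested Mmp3+ markers (Mmp3 and Cxcl5) passed as higher in STA. So did 1 of 9 Pi16+ markers (Pi16) and 1 of 4 Cd200+ markers (Smoc2), but none of 5 lining markers. None of these markers passed as lower. Pi16 rose from 490 and 754 CPM in healthy to 1228, 1287 and 1594 CPM in STA (log2 change 1.00 ± 0.17, edgeR adjusted p = 0.00595). The 4 Mmp3+ markers summed to 490 to 861 CPM in healthy and 1357 to 2660 CPM in STA pools. The summed level of the 12 immune markers was 14.3 to 23.1 CPM in healthy and 15.0 to 79.8 CPM in STA pools, with Cd3e and Ltf at 0 in all pools. The 8 endothelial markers summed to 6.11 to 43.5 CPM in healthy and 6.88 to 22.5 CPM in STA pools, and the 8 osteoblast markers to 77.4 to 177 and 53.2 to 107 CPM, with Sp7 and Mepe at 0. The 10 chondrocyte markers summed to 1836 to 2892 CPM in healthy and 1716 to 1984 CPM in STA pools, with Matn1 at 0, and 1575 to 2816 CPM of the sums was Comp, a cartilage and tendon matrix protein. A keratinocyte list added after the values were seen (Krt5, Krt14, Krt10, Krt2, Krt1, Ly6d, Dmkn and Mt4) summed to 268 and 90.6 CPM in the healthy pools and 367, 63.3 and 59.9 CPM in STA. Its members Krt5 and Krt14 are 2 of the 10 largest falls, and neither passed with the top cell of each pool left out (edgeR adjusted p = 0.13 and 0.154). The part of these markers in the other results was not tested.

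**Figure D3:**
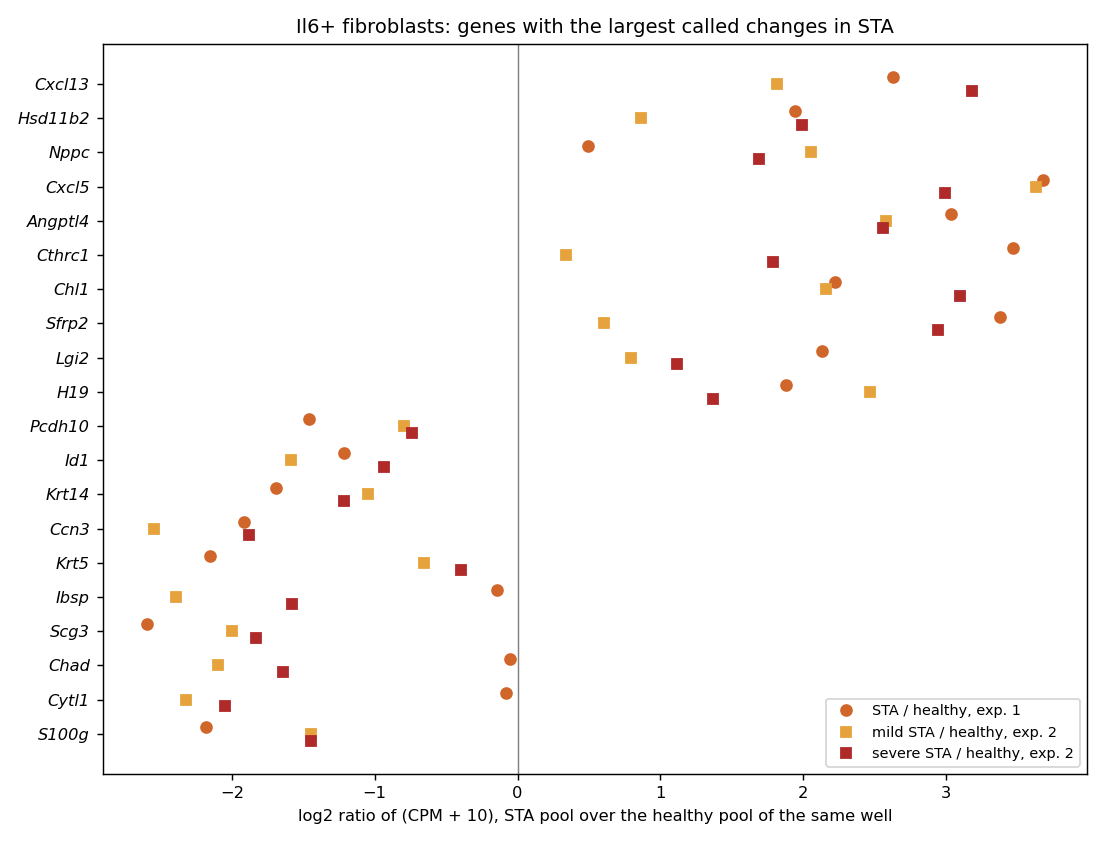
Log2 ratio of each STA pool to the healthy pool of the same well (10 CPM added to both) for the 10 genes with the largest rise and the 10 with the largest fall among genes that passed the test. Cxcl5 and Angptl4 lie close together in the 3 STA pools, whereas Cytl1, Chad and Ibsp lie near 0 in experiment 1.

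The response was also compared with that of Pi16+ fibroblasts, which had 55 to 205 cells in each of the 6 pools. Fitted alone in the same way, 87 of 9766 genes passed in Pi16+ cells (0.891%), 43 higher (0.44%) and 44 lower (0.451%). Of these 87, 41 were also called in Il6+ cells, all 41 in the same direction (47.1% of the Pi16+ and 19.9% of the Il6+ calls). Cxcl14, Igfbp4, Igfbp6, Ccn3, Postn, C3, Cthrc1, Chl1 and Lgi2 were among the 41, so their change was not particular to Il6+ cells. A test of the difference between the responses (class by STA interaction, edgeR quasi-likelihood test) called 15 of 10156 genes (0.148%), of which 11 had the higher response in Il6+ (0.108%) and 4 the lower (0.0394%). The 11 were Nppc, Fabp4, Cxcl13, Hist1h2ap, Sfrp2, Sfrp4, Igfbp3, G0s2, Chrdl1, Ccn1 and Ccl11, and the 4 were Id1, Krt14, Ptn and Neat1. Of the 5 leave-outs, Igfbp3, Sfrp2 and Chrdl1 lost their call in 1, that without the healthy pool of experiment 2, and each of the other 12 lost it in at least 2 of 5 leave-outs. Without the healthy or the STA pool of experiment 1 the difference rests on experiment 2 alone, so these leave-outs are not separate checks. Fabp4 and Cxcl13 lost their call only in these. With highest-hashtag cells alone 5 of the 15 passed, without top cells 8, and with DESeq2 1.

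Igfbp3 (chr11:7206086-7213923), a carrier of insulin-like growth factors, had the smallest adjusted p. In Il6+ cells it stood at 27.2 and 58.1 CPM in the healthy pools and 42.7, 81.2 and 79.9 CPM in STA, while in Pi16+ cells it stood at 36.1 and 339 CPM against 4.45, 92.2 and 87.8 CPM. The difference of responses was 2.52 ± 0.29 on the log2 scale (SE; edgeR adjusted p = 0.0017), and it came with a fall in Pi16+ cells (log2 change -2.10, edgeR adjusted p = 0.000453). Chrdl1 differed in the other way: it rose in Il6+ cells as given above and had 36.1 and 50.03 CPM in healthy and 40.1, 32.3 and 67.4 CPM in STA Pi16+ cells (interaction 1.94 ± 0.36, edgeR adjusted p = 0.0445). Sfrp2 stood at 37.95 and 299 CPM in healthy and 281, 58.4 and 137 CPM in STA Pi16+ cells (interaction 2.63 ± 0.49, edgeR adjusted p = 0.0434; 0.102 with highest-hashtag cells alone). Id1 had 27.2 and 21.1 CPM in healthy Pi16+ cells and 30.1, 32.3 and 30.7 CPM in STA, where the Il6+ cells fell (interaction -2.37 ± 0.44, edgeR adjusted p = 0.0434; 0.102 with highest-hashtag cells alone and 0.0747 without top cells). Cxcl13 was at 31.0 and 0 CPM in healthy and 13.4, 1.54 and 17.1 CPM in STA Pi16+ cells, and the sign of its interaction turned without the healthy or the STA pool of experiment 1 and with highest-hashtag cells alone (log2 -0.68, -0.69 and -0.94).

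For Angptl4, Cxcl5, Icam1 and Il6 a different response in the classes was not shown. Angptl4 rose in Pi16+ cells too, from 18.98 and 9.16 CPM to 189, 55.3 and 38.4 CPM (log2 change 2.94 ± 0.29, edgeR adjusted p = 0.000416), with an interaction of 0.43 ± 0.38. Cxcl5 rose in Pi16+ cells from 19.6 and 5.64 CPM to 85.7, 24.6 and 6.82 CPM (log2 change 1.88 ± 0.38, edgeR adjusted p = 0.031), with an interaction of 1.82 ± 0.37 (edgeR adjusted p = 0.0768). Icam1 was at 344 and 199 CPM in healthy and 222, 304 and 153 CPM in STA Pi16+ cells, with an interaction of -1.24 ± 0.24 (edgeR adjusted p = 0.0558). For Il6 the interaction was 0.18 ± 0.16 (edgeR adjusted p = 0.882).

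Against the sum of the other 4 classes 516 of 11747 genes differed in response (4.39%), 280 with the higher (2.38%) and 236 with the lower (2.01%) response in Il6+. Mmp3+ cells made up 3.39% and 16.5% of that sum in the healthy pools and 57.7 to 81.3% in the STA pools, so a changed mix of classes and a changed response within a class cannot be told apart there, and no gene is named from it.

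**Figure D4:**
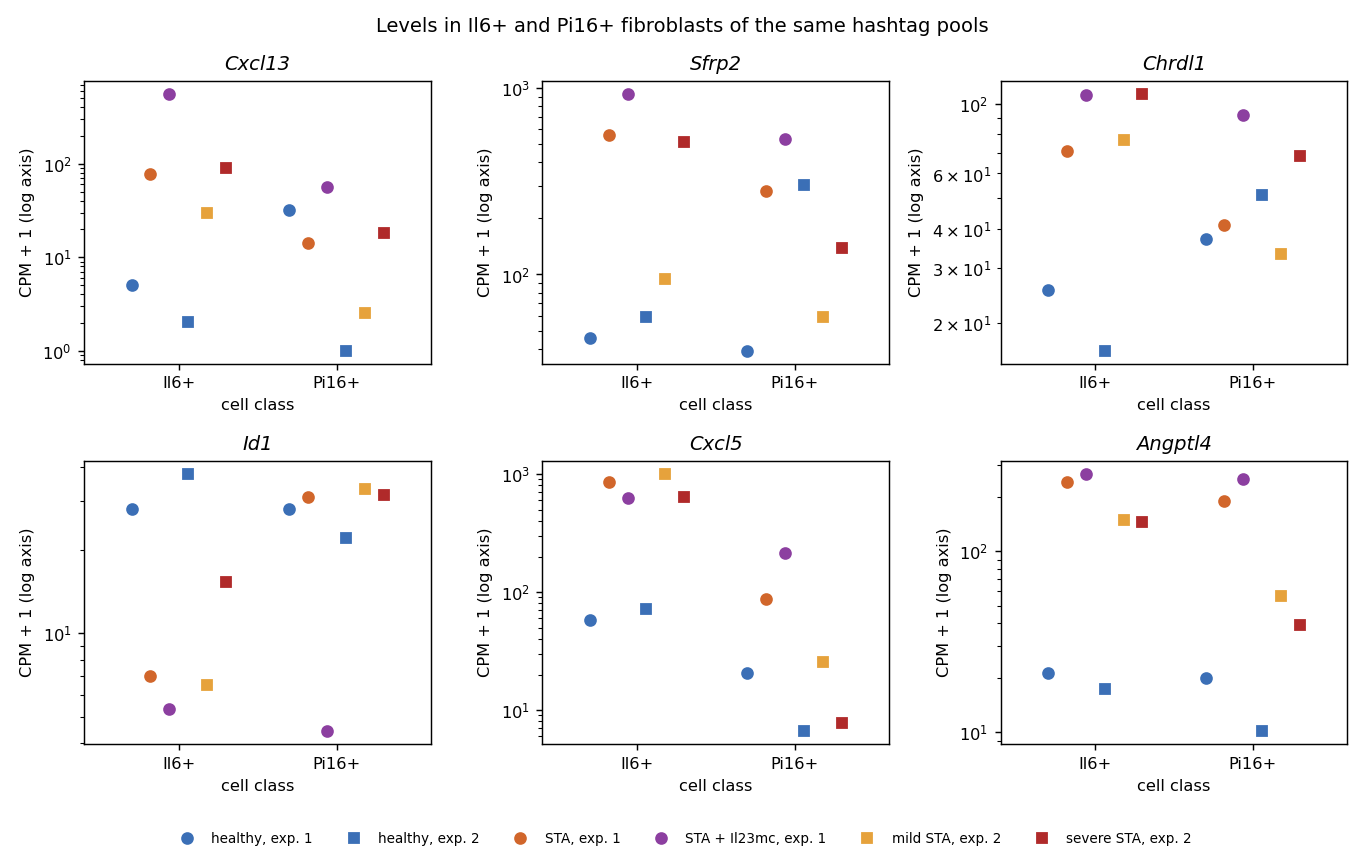
Levels of 6 genes (CPM + 1, log axis) in Il6+ and Pi16+ fibroblasts, 1 point per hashtag pool, with circles for experiment 1 and squares for experiment 2. Chrdl1 is higher and Id1 lower in all STA than in all healthy pools of Il6+ cells, whereas in Pi16+ cells the Chrdl1 levels overlap and Id1 is higher in STA, at 30.1 to 32.3 CPM; Angptl4 is higher in STA pools of both classes.

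Il23mc added to STA was read in 1 pool against the 1 STA pool of experiment 1, so the following values have no test. Of 5021 genes with at least 50 UMIs in both pools together, 59 were at least 2-fold higher with Il23mc (1.18%) and 42 at least 2-fold lower (0.836%), with 10 CPM added to both sides. The median log2 ratio of all these genes was -0.09, and 1959 of the 5021 were higher with Il23mc. Acute-phase and interferon-inducible genes were higher, and Il6 was at 1346 CPM with and 1329 CPM without Il23mc (counting interval of the log2 ratio -0.07 to 0.10).

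Of 8 measured acute-phase genes all 8 were higher and 6 past 2-fold. Saa3, a serum amyloid A of inflamed tissue, stood at 3370 CPM with Il23mc against 475 CPM in STA, where the healthy pool had 277 CPM with 89.2% of it in 1 cell, and 136 of 227 cells held a UMI against 47 of 137. Lcn2, an iron-sequestering lipocalin, stood at 1428 against 321 CPM, with 49.3% of the STA value in 1 cell, and Serpina3n, a protease inhibitor, at 2720 against 820 CPM. Saa1 (243 against 63.7 CPM), Saa2 (36.3 against 6.75 CPM) and the ferroxidase Cp (469 against 158 CPM) were the others past 2-fold. The 9 to 1093 UMIs behind the STA values of these genes give intervals that all lie above 1 on the log2 scale for the ratio of counts.

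The interferon-response list had 17 measured genes, all 17 higher and 4 past 2-fold. Iigp1, a GTPase induced by interferon gamma, stood at 364 CPM with Il23mc against 57.7 CPM, in 124 of 227 cells against 18 of 137. Igtp, of the same family, stood at 62.4 against 8.25 CPM, Ifi47 at 52.5 against 18.7 CPM and Gbp7 at 66.3 against 20.2 CPM. Of 12 class I presentation genes all 12 were higher and 1, the peptide transporter Tap2, was past 2-fold. The chemokine Cxcl9, induced by the same cytokine, stood at 43.0 against 9.75 CPM, and Cxcl13 at 557 against 77.2 CPM, in 56 cells against 22.

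Other genes among the 10 largest rises were Ctla2a, a cathepsin inhibitor, Igfbp3, Plac8, Serpina3f and the kininogen Kng2. Ctla2a had the largest ratio, 1349 against 16.5 CPM, and 50 of 227 cells held it, 1 of them with 23.7% of its UMIs. Of the class markers, Apod was at 5971 against 3309 CPM, Gdf10 at 180 against 268 CPM and Penk at 201 against 421 CPM. Thy1, a surface marker of sublining fibroblasts, was at 70.7 with Il23mc, 207 in STA and 99.2 CPM in the healthy pool. The list of NF-kB genes had 7 of 19 members higher and 1 past 2-fold, Il1rl1, which was lower.

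Several of the lowest genes rested on single cells of the STA pool. One cell there held 74.6% of the UMIs of Tac1, the substance P precursor (6.71 against 106 CPM), 95.2% of those of the keratin Krt2, 88.5% of those of Igfbp2 and 85.6% of those of Ly6d. Krt10, Mt4, Dmkn and Il11 were also lower, with 36.2 to 66.2% in 1 cell. Of the 10 lowest, the collagens Col15a1 (49.7 against 186 CPM) and Col8a1 (20.9 against 99.0 CPM) were spread over 82 and 25 cells of the STA pool. The contractile gene Acta2, past 2-fold in its list, stood at 12.2 against 51.0 CPM.

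**Figure D5:**
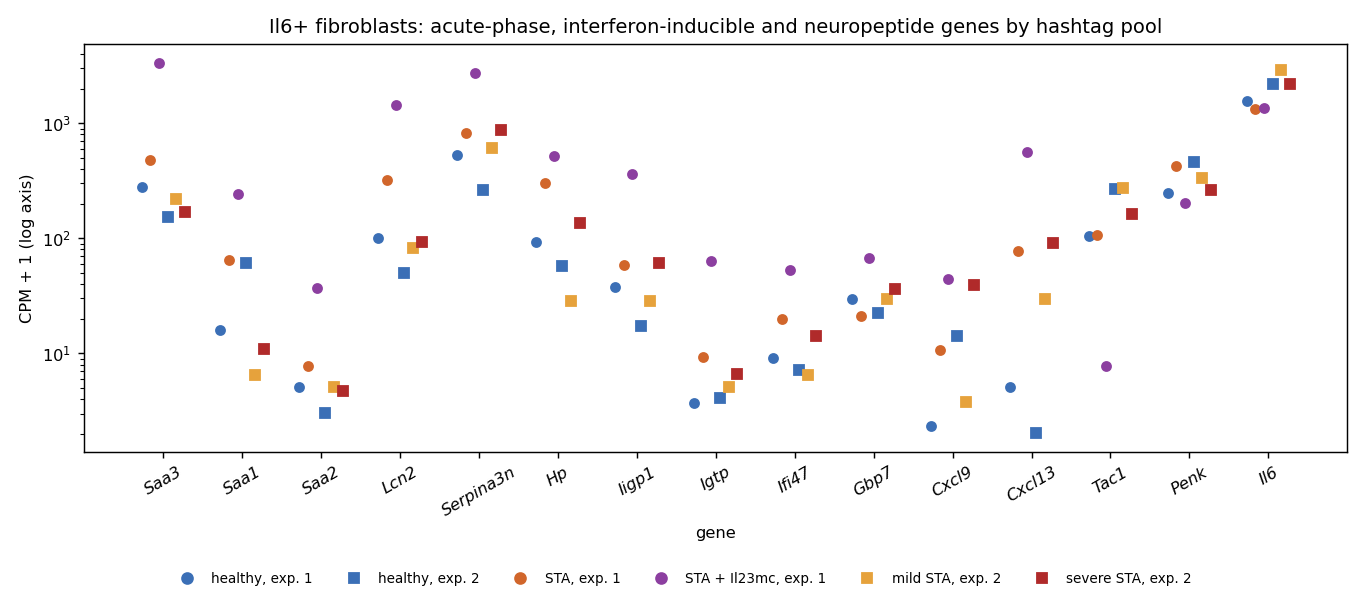
Levels (CPM + 1, log axis) of 15 genes in Il6+ fibroblasts, 1 point per hashtag pool. The STA + Il23mc pool is the highest of the 6 for the acute-phase genes, the interferon-inducible genes and Cxcl13, the lowest for Tac1 and Penk, and within the range of the others for Il6.

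Severe and mild STA were also read in 1 pool each, again with no test. Of 4007 genes with at least 50 UMIs in both pools together, 44 were at least 2-fold higher in the severe pool (1.1%) and 17 at least 2-fold lower (0.424%). The mild pool had 63 Il6+ cells, and its Ddx3y level differed as given above, so severity cannot be told apart from the sex of the animals or from single cells. Interferon-response and heat shock genes were mostly higher in the severe pool. Cxcl10, an attractant of activated T cells, stood at 722 against 209 CPM and was spread over 41 and 12 cells, and Isg15, an interferon-induced modifier, at 79.9 against 17.9 CPM, with 62.5% in 1 cell. Of 9 measured interferon-response genes all 9 were higher and 3 past 2-fold, and of 14 heat shock genes 12 were higher and 4 past 2-fold. Of all 4007 measured genes 2191 were higher in the severe pool.

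Sfrp2 stood at 513 CPM in the severe against 93.6 CPM in the mild pool, in 42 of 139 and 9 of 63 cells, with 66.2% of the mild value in 1 cell. The acute-phase gene Hp stood at 134 against 27.5 CPM, with 41.6% of the severe pool's Hp UMIs in 1 cell and 20 UMIs in the mild pool. The angiopoietin Angpt4 stood at 36.2 against 1.38 CPM. Chil1 and Car3 had the largest ratios, but 96.9% and 99.2% of their UMIs came from 1 cell of the severe pool. Among the lower genes, 1 cell of the mild pool held 72.2% of the UMIs of Fry, 78.9% of Vpreb3, 76.9% of the neurotrophin Bdnf and 60.4% of the activin subunit Inhba. Mmp3 stood at 419 against 899 CPM and Prg4 at 687 against 2020 CPM, with 73.5% and 47.9% of the mild pool's UMIs in 1 cell. Il6 was at 2196 CPM in the severe and 2925 CPM in the mild pool (counting interval of the log2 ratio -0.49 to -0.34).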

How the data were processed

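Droplet 3' libraries of 2 fibroblast wells were used, each with 3 hashtag pools. The authors deposited UMI counts per gene and barcode, made with Cell Ranger (version 6.0.6 per the submitters' processing notes, 6.1.2 per the file headers) on mm10, and a table with the authors' cell classes, hashtag calls, per-cell fractions (such as a mitochondrial fraction) and module scores. Doublet handling was the authors' hashtag calling, and no further doublet caller was run. Wells held 6446 and 4282 barcodes, of which 2431 and 1117 matched the table. The members and gene lists were chosen with earlier results of these data known.

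UMIs were summed per pool and class, and cells were not treated as replicates. Sums were tested with edgeR 4.0.16 (TMM, filterByExpr, quasi-likelihood F test, experiment as a term, Benjamini-Hochberg over all tested genes), with a class by STA interaction between classes. Pools of an experiment share a well, so the experiment is the replicate block and is in the fit. The STA + Il23mc pool had its own coefficient. Scripts were tested on simulated counts. The genes named are the called ones (threshold 0.05) that change most, at most 10 in each direction, that reach 20 CPM in a group and whose groups stand apart inside each experiment, plus 3 or fewer called genes from each list. Comparisons of 1 pool with 1 pool used log2 ratios of CPM + 10, at least 50 UMIs and exact counting intervals of 95%. Cells were thinned to 2000 UMIs for shares, which left out 11 Il6+ cells. Alternatives were DESeq2 1.42.0, RLE factors, no count filter, no block, cells with at least 2000 UMIs and leaving out each pool. Chosen after seeing the data were highest-hashtag cells, the comparison with Pi16+, the share outside Mmp3+ and sums without each gene's top cell.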

Additional observations from a re-analysis of the deposited data

Results flagged for a closer look

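Of the genes that mark fibroblast classes, 3 had STA against healthy log2 ratios of opposite sign in the experiments, a difference that was not tested. The log2 ratio of CPM + 10 for Il6 was -0.229 in experiment 1, and 0.426 (mild) and 0.0141 (severe) in experiment 2. In the severe pool Il6 was thus close to its healthy pool, at 2196 against 2174 CPM. For Penk it was 0.746 in experiment 1, and -0.449 (mild) and -0.783 (severe) in experiment 2. For Cd200, with 23 to 50 UMIs in each of these pools, the ratio was -0.211 in experiment 1, and 0.191 (mild) and 0.176 (severe) in experiment 2. The response to STA differed from that of Pi16+ fibroblasts in 15 genes and from that of the sum of the other 4 classes in 516 genes (edgeR quasi-likelihood interaction test, adjusted p under 0.05).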

How the results depend on the processing

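The 206 genes called in STA against healthy became 225 with RLE factors, 226 in cells with at least 2000 UMIs, 241 without each gene's top cell, 115 with DESeq2 (7412 genes without an adjusted p), 469 with no count filter, 127 with highest-hashtag cells alone (108 of them among the 206) and 2 without the replicate block. Leaving out 1 pool gave 269 to 472, with 381 without the healthy pool of experiment 2 and 472 without the mild pool. The interaction with Pi16+ called 15 genes, 1 with DESeq2, 2 without the replicate block, 11 with highest-hashtag cells, 16 without top cells, and 5 to 59 when 1 pool was left out (5 without the healthy pool of experiment 2, 43 without the mild and 59 without the severe pool). In it Cxcl13 turned to -0.94 with highest-hashtag cells, -0.68 without the healthy and -0.69 without the STA pool of experiment 1, and Fabp4 to -0.16 without either; leaving out 1 pool gave up to 5.29 for Cxcl13 and 7.68 for Fabp4, both without the healthy pool of experiment 2. The interaction with the other 4 classes called 516 genes, 186 with DESeq2, 797 with no filter, 341 with highest-hashtag cells, 15 against Pi16+ alone, and 34 to 660 when 1 pool was left out (34 without the healthy pool of experiment 2, 97 without the STA and 114 without the healthy pool of experiment 1). The Il6+ share difference was -8.89 points, 13.6 outside Mmp3+ and -12.6 to -5.09 when 1 pool was left out. The mean share of Il6+ cells with an Il6 UMI was 64.0% thinned and 79.5% unthinned. With 1 CPM in place of 10 added, 188 genes instead of 101 were past 2-fold with Il23mc, and 98 instead of 61 in severe against mild STA. The cause of these shifts was not tested. Depth limits genes under about 20 CPM, where a pool holds few UMIs.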
